A study of Homo sapiens with 6 samples.

Results

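The genes described here encode the extracellular matrix of HGC-27 cells, the enzymes that work on it and the receptors that bind it. They are 47 genes chosen by symbol, comprising collagens, laminins, matricellular proteins including the CCN family, matrix enzymes and their inhibitors, and integrins, with ANKRD1 added as a nuclear protein. They were found among 62443 genes in an RNA-seq table by name alone, in a choice made with earlier results of these data known. HGC-27 is an established cell line from an undifferentiated gastric carcinoma. The study asks how TEAD4, a DNA-binding factor of the Hippo pathway, can be held in a repressive state, and GLUP is a peptide it designed to join TEAD4 molecules. The 6 libraries are 3 labelled Con, with no treatment, and 3 labelled GLUP, given the GLUP peptide. Both groups are the same unmodified cell line, grown in the same serum-containing medium. The study's methods name the buffer of the peptide as its negative control, the labels give neither dose nor duration, and the treatment length is stated differently in the study's results and methods. The study's methods mention biological replicates for RNA sequencing but do not tie them to these libraries, and the labels name no separate cultures, so p-values measure only the spread between libraries, which may be in part technical.

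The extracellular matrix is a network of secreted proteins. Fibrillar collagens, fibronectin and fibrillins build the interstitial matrix, laminins and collagen IV build the sheet-like basement membrane, and matricellular proteins such as the CCN family tune how cells read that network. Integrins are receptors made of an alpha and a beta chain that tie the matrix to the cytoskeleton, and lysyl oxidases, metalloproteinases and TIMPs cross-link, cut and protect it. TEAD factors, with YAP and TAZ, switch on many of these genes, and CCN1, CCN2 and ANKRD1 are widely used readouts of that activity.

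Values are FPKM, that is fragments scaled to gene length and to the total of the library, so levels of different genes can be compared. Of the 47 genes, 21 reached a mean of 1 FPKM over the 6 libraries, 23 lay above 0 but below that mean, and 3 (VCAN, COL4A1 and ITGA2) were listed at 0 in every library. Of the 21 genes, 14 reached a mean of 1 FPKM in each group, 6 in Con only (CCN1, THBS1, CRIM1, CCDC80, ANKRD1 and FN1), and 1 (ITGB5) in GLUP only. FPKM totals ran from 909735 to 965147 per library, and read numbers behind them are not given. Con replicate 2 stood apart, correlating at 0.898 on average with the others, while the rest ranged from 0.954 to 0.964. The epithelial markers EPCAM and CDH1 did not exceed 0.124 FPKM and none of 7 gastric lineage markers reached 1 FPKM. Mesenchymal marker sums, mostly VIM and including FN1, ran from 343.8 to 409.7 FPKM in Con and from 228.7 to 339.5 FPKM in GLUP, with no overlap and 3 of 4 markers at a mean of 1 FPKM or more. VIM itself overlapped, at 335.6 FPKM in Con replicate 1 and 336.0 FPKM in GLUP replicate 1. Epithelial marker sums did not overlap between groups, at 2.97 to 3.70 FPKM in Con and 5.18 to 6.06 FPKM in GLUP, with 3 of 5 markers (KRT8, KRT18 and KRT19) at a mean of 1 FPKM or more. CDH1 and EPCAM went the other way. CDH1 was at 0.0687, 0.0799 and 0.0148 FPKM in Con and at 0 in every GLUP library. EPCAM was at 0.124, 0.0766 and 0 FPKM in Con and at 0.0451, 0 and 0 FPKM in GLUP. Fibroblast marker sums, which include COL1A1, were 88.2 to 125.8 FPKM in Con and 93.0 to 123.6 FPKM in GLUP, with 4 of 7 markers at a mean of 1 FPKM or more. The part of any of these cell markers in the results was not tested. In these bulk libraries, fewer cells of a type and less RNA per cell cannot be told apart.

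Across the 21 genes, 15 had a lower and 6 a higher mean log2(FPKM + 1) in GLUP. None of the differences passed an adjusted p under 0.05 (limma, Benjamini-Hochberg over 7406 genes), as was the case for 0% of all genes tested. At an unadjusted p under 0.05, 4 of the 21 genes were lower (CCN1, CRIM1, LAMC1 and FN1; background 17.2%) and 0 were higher (background 4.46%). All 3 GLUP libraries lay below all 3 Con libraries for 6 of 21 genes, or 28.6%, against 22.7% of all genes tested, and above them for 1, or 4.76%, against 7.55%. The members' counts were thus near the background. Of the genes lower by p, CCN1, CRIM1 and FN1 passed the minimum only through their Con level. CCN1, FN1 and THBS1 did so among the genes without overlap, and ITGB5 passed it only through GLUP. The filter itself favours such directions, so these calls are a description only. The median log2 fold change was -0.39 over the 21 genes and -0.23 over all genes tested, of which 4850 were lower in GLUP. Relative to that shift, 13 of the 21 genes were lower and 8 higher, and LAMB2 and CD44 turned from lower to higher (0.07 and 0.15).

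**Figure D1:**
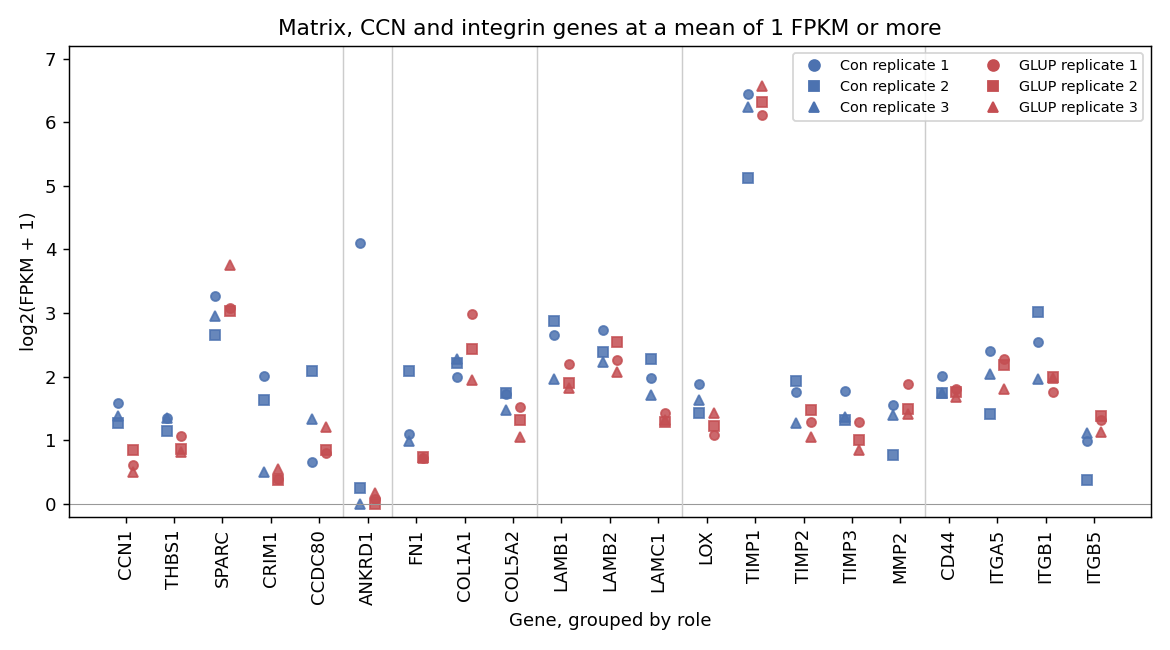
Levels of the 21 genes that reached the minimum of 1 FPKM, as log2(FPKM + 1), grouped by role; each symbol is a library, with Con and GLUP in separate colours and the replicate given by its shape. TIMP1 is the highest of these genes, and most others lie under 10 FPKM.

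The CCN genes encode secreted matricellular signals, and for CCN1 and CCN2 all GLUP libraries lay below all Con libraries. CCN1 (ENSG00000142871, chromosome 1), whose protein binds integrins, measured 2.00, 1.42 and 1.61 FPKM in Con and 0.524, 0.797 and 0.407 FPKM in GLUP. Every GLUP library lay below every Con library. The group means were 1.68 ± 0.296 and 0.576 ± 0.200 FPKM (SD, n = 3 each), a GLUP to Con ratio of 0.344. The log2 fold change was -0.77 (SE 0.21; limma adjusted p = 0.194), and -0.54 relative to the all-gene median. With 3 libraries against 3, an exact two-sided permutation test can give no p below 0.1, which CCN1 reached. Any gene whose groups do not overlap reaches that value, so it adds nothing to the lack of overlap.

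CCN2 (ENSG00000118523, chromosome 6), the connective tissue growth factor, was below 1 FPKM on average and entered only the fit without a filter. It measured 0.526, 1.00 and 0.202 FPKM in Con and 0.160, 0.0811 and 0.118 FPKM in GLUP, again with no overlap, although Con replicate 3 was close to the GLUP libraries. The means were 0.577 ± 0.402 and 0.120 ± 0.0392 FPKM (SD, n = 3 each). For CCN2 the log2 fold change was -0.46 (SE 0.20; limma adjusted p = 0.589).

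ANKRD1 (ENSG00000148677, chromosome 10), a nuclear ankyrin repeat protein that is a common readout of TEAD activity, rested on a single library. It measured 16.1, 0.191 and 0 FPKM in Con and 0.0560, 0 and 0.131 FPKM in GLUP. Con replicate 1 was high and the other 5 libraries overlapped. Its log2 fold change of -1.36 (SE 0.86; limma adjusted p = 0.335) became -0.04 without Con replicate 1.

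CCN2 and ANKRD1 both carry more than a single copy of GGAATG, the core letters that TEAD factors are known to bind. CCN1 had no promoter entry, so of the TEAD readouts named above only the sequences of CCN2 and ANKRD1 are given. They are the 250 bases before the annotated start in the RefSeq promoter table of GRCh38.p14, CCN2 at chr6:131951373-131951622 and ANKRD1 at chr10:90921088-90921337, both on the minus strand and written 5′ to 3′ along the gene, with each GGAATG in capitals.
CCN2: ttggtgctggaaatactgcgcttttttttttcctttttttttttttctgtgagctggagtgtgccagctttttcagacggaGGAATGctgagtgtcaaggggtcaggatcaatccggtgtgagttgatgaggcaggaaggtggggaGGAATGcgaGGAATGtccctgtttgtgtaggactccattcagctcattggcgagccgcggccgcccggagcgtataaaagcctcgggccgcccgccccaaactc
ANKRD1: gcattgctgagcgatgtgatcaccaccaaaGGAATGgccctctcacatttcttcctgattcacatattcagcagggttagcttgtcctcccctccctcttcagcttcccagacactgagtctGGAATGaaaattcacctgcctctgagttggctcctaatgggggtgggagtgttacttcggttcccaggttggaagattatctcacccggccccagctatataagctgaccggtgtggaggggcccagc
The 3 matches of CCN2 begin 169, 104 and 95 bases before the start, and the 2 matches of ANKRD1 begin 220 and 128 bases before it. The search read both strands of 300 bases around each start for GGAATG, and 33 of the 47 genes had an entry in the table. The motif was in 7 of these 33 (21.2%; CCN2, ANKRD1, SPARC, ITGB1, ITGA5, THBS1 and FBN1) and in 3836 of 27305 promoters of all genes (14.0%). At least 2 matches were in 2 of the 33 genes and in 1.37% of all promoters. The matches are a description of letters and no measure of binding. CCN1, CRIM1, COL1A1, COL1A2, COL5A2, COL6A1, AGRN, LAMA1, LOXL2, TIMP2, MMP2, ITGA3, ITGB3 and ITGB4 had no entry.

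The other matricellular genes differed in sign, and none passed the adjusted threshold. THBS1, thrombospondin-1, a glycoprotein that activates latent TGF-beta, measured 1.56, 1.22 and 1.55 FPKM in Con and 1.09, 0.825 and 0.765 FPKM in GLUP, with no overlap (log2 fold change -0.37, SE 0.21; limma adjusted p = 0.295). The change of THBS1 was -0.03 once GC content and length trends were removed, and its groups then overlapped, as they did with the trimmed mean of log ratios. SPARC, a collagen-binding matricellular protein, measured 8.67, 5.27 and 6.72 FPKM in Con and 7.50, 7.18 and 12.5 FPKM in GLUP. The SPARC groups overlapped (log2 fold change 0.33, SE 0.32; limma adjusted p = 0.509), and the change was 0.10 without GLUP replicate 3, its highest library. CRIM1, a transmembrane protein with CCN-like cysteine-rich repeats (ENSG00000150938, chromosome 2), measured 3.03, 2.10 and 0.412 FPKM in Con and 0.315, 0.299 and 0.460 FPKM in GLUP. Con replicate 3 fell among the GLUP libraries, and the other 2 Con libraries lay far above them. The log2 fold change of CRIM1 was -0.94 (SE 0.35; limma adjusted p = 0.198). CCDC80, a secreted matrix protein, measured 0.583, 3.27 and 1.51 FPKM in Con and 0.736, 0.807 and 1.32 FPKM in GLUP, and its log2 fold change of -0.41 became -0.04 without Con replicate 2 and 0.01 with the trends removed. TNC, the tenascin-C gene, stayed under 0.05 FPKM in all 6 libraries.

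**Figure D2:**
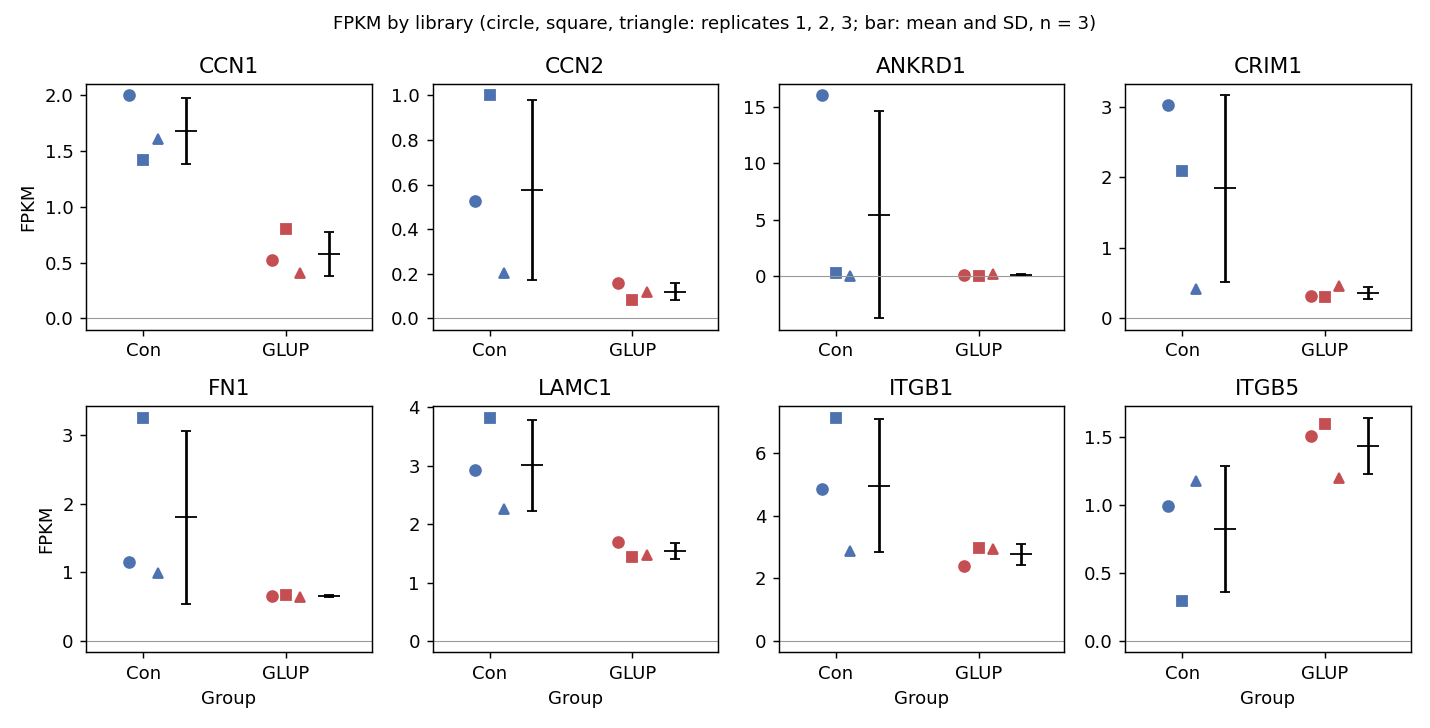
FPKM of the named genes by library, with circle, square and triangle for replicates 1, 2 and 3, and a bar for the mean and SD (n = 3). CCN1 and LAMC1 show all GLUP libraries under all Con libraries, and ANKRD1 is high in Con replicate 1 only.

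In the interstitial matrix, FN1 had the smallest p of the 3 genes that reached the minimum. FN1 (ENSG00000115414, chromosome 2), which links collagen to integrins, measured 1.15, 3.25 and 0.993 FPKM in Con and 0.655, 0.671 and 0.644 FPKM in GLUP. All GLUP libraries were below all Con libraries, and Con replicate 2 was the high one. For FN1 the log2 fold change was -0.67 (SE 0.29; limma adjusted p = 0.226), and it was -0.32 without Con replicate 2. COL1A1, a chain of the main fibrillar collagen, measured 2.97, 3.64 and 3.84 FPKM in Con and 6.90, 4.42 and 2.86 FPKM in GLUP (log2 fold change 0.30, adjusted p = 0.551). COL5A2, a chain of the collagen V that nucleates these fibrils, measured 2.32, 2.35 and 1.78 FPKM in Con and 1.88, 1.48 and 1.07 FPKM in GLUP (log2 fold change -0.35, adjusted p = 0.361). Both overlapped between groups, and the change of COL1A1 was 0.03 without GLUP replicate 1. With the trends removed it was 0.12 for COL1A1 and -0.10 for COL5A2. COL6A1, at a mean of 0.908 FPKM, was among the genes under the minimum, as were COL1A2, COL5A1 and COL6A2. FBN2, which with FBN1 builds microfibrils, measured 0.327, 0.428 and 0.391 FPKM in Con and 0.119, 0.163 and 0.192 FPKM in GLUP, and FBN1 stayed under 0.11 FPKM, both with no overlap.

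Among basement membrane genes, the 3 that reached the minimum were the laminin chains LAMC1, LAMB1 and LAMB2. LAMC1 (ENSG00000135862, chromosome 1), the gamma-1 chain shared by most laminins, measured 2.93, 3.83 and 2.27 FPKM in Con and 1.69, 1.44 and 1.48 FPKM in GLUP. Every GLUP library lay below every Con library, at means of 3.01 ± 0.784 and 1.54 ± 0.136 FPKM (SD, n = 3 each). For LAMC1 the log2 fold change was -0.64 (SE 0.25; limma adjusted p = 0.199), or -0.41 relative to the all-gene median. LAMB1, the beta-1 chain, measured 5.31, 6.33 and 2.89 FPKM in Con and 3.58, 2.74 and 2.54 FPKM in GLUP (log2 fold change -0.52, SE 0.31; limma adjusted p = 0.306), with Con replicate 3 among the GLUP libraries. Exons of LAMB1 overlap DLD on the opposite strand, and strand-specific counting is not stated, so its value is uncertain. LAMB2, the beta-2 chain, overlapped between groups (log2 fold change -0.16, limma adjusted p = 0.713), and its sign turned with the trimmed mean of log ratios (0.08). The remaining 8 genes of this role stayed low: COL4A1 was at 0, while HSPG2, AGRN, LAMA1, LAMA4, LAMA5, COL4A2 and COL18A1 had means under 1 FPKM, and LAMA4 reached 1.05 FPKM in Con replicate 2 alone. Exons of LAMA5, at a mean of 0.522 FPKM, overlap ADRM1 (58.7 FPKM) on the opposite strand, so the LAMA5 value is uncertain too.

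The enzyme and inhibitor genes were led by an inhibitor. TIMP1, a metalloproteinase inhibitor, was the highest of the 47 genes and measured 86.4, 33.9 and 74.5 FPKM in Con and 68.0, 79.0 and 94.0 FPKM in GLUP. The groups overlapped, and the log2 fold change of 0.40 (limma adjusted p = 0.522) became -0.01 without Con replicate 2, the low library. TIMP3, an inhibitor that stays bound to the matrix, measured 2.41, 1.504 and 1.58 FPKM in Con and 1.45, 1.01 and 0.796 FPKM in GLUP, with no overlap (log2 fold change -0.44, SE 0.24; limma adjusted p = 0.284). LOX, a lysyl oxidase that cross-links collagen and elastin, measured 2.70, 1.70 and 2.09 FPKM in Con and 1.12, 1.32 and 1.70 FPKM in GLUP. The highest GLUP library of LOX lay just under the lowest Con library. The log2 fold change was -0.41 (SE 0.24; limma adjusted p = 0.306), but its exons overlap SRFBP1 on the opposite strand and the sign changed to 0.11 once GC content and length trends were removed. TIMP2 and MMP2, an inhibitor and a gelatinase, gave log2 fold changes of -0.39 and 0.36 with adjusted p of 0.362 and 0.417 by limma, both with overlapping groups. LOXL2, another lysyl oxidase, measured 0.363, 0.175 and 0.237 FPKM in Con and 0.501, 0.365 and 0.395 FPKM in GLUP, and MMP14, a membrane-bound metalloproteinase, was under 1 FPKM in 5 of the 6 libraries.

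Among receptors, the integrin beta chains differed in sign. ITGB1 (ENSG00000150093, chromosome 10), the beta chain shared by most matrix-binding integrins, measured 4.84, 7.13 and 2.89 FPKM in Con and 2.39, 2.98 and 2.95 FPKM in GLUP. Con replicate 3 lay within the GLUP range, and the means were 4.95 ± 2.12 and 2.77 ± 0.335 FPKM (SD, n = 3 each). For ITGB1 the log2 fold change was -0.60 (SE 0.31; limma adjusted p = 0.27), and -0.07 once GC content and length trends were removed. ITGB5 (ENSG00000082781, chromosome 3), the partner of alpha-V in a vitronectin receptor, measured 0.989, 0.296 and 1.17 FPKM in Con and 1.51, 1.59 and 1.20 FPKM in GLUP. It was the only gene of the 21 with all GLUP libraries above all Con libraries (log2 fold change 0.45, SE 0.25; limma adjusted p = 0.286), and without the low Con replicate 2 the change was 0.22. CD44, a hyaluronan receptor, stayed between 2.20 and 3.04 FPKM (log2 fold change -0.08, limma adjusted p = 0.836). Its sign turned under trimmed mean scaling (0.13) and once the trends were removed (0.30). ITGA5, the fibronectin receptor alpha chain, gave a log2 fold change of 0.13 (limma adjusted p = 0.798), and -0.14 without Con replicate 2. ITGA3, ITGA4, ITGA6, ITGAV, ITGB3 and ITGB4 were under the minimum, and ITGB3 was listed at 0 in 2 GLUP libraries and at 0.0124 FPKM in the other.

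**Figure D3:**
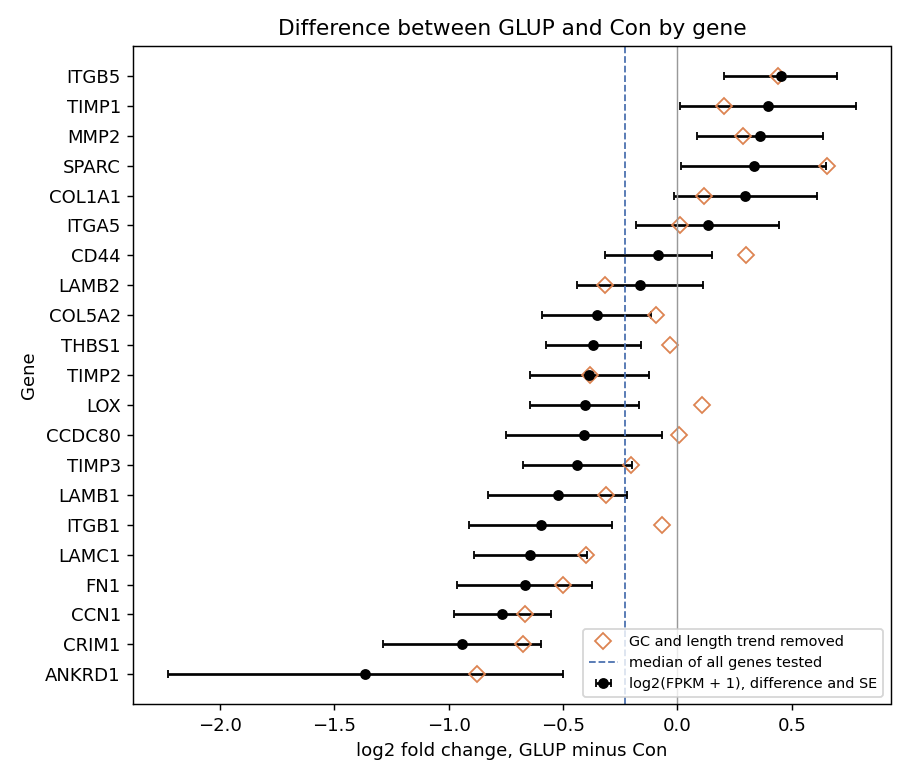
Log2 fold change of GLUP minus Con for each of the 21 genes, with its SE, and the same after removing trends in GC content and length; the dashed line is the median of all genes tested (-0.23). On log2(FPKM + 1), CCN1 and CRIM1 lie lowest apart from ANKRD1 and ITGB5 is the highest, while with the trends removed SPARC (0.65) lies above ITGB5 (0.44).

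Of the 23 genes above 0 but below 1 FPKM, GLUP lay below Con in all libraries for 5 (CCN2, FBN1, FBN2, ITGA6 and ITGB3; 21.7%) and above it for 2 (TNC and LOXL2; 8.7%). Over all 24038 genes in that range the shares were 5.77% and 3.41%. Those genes hold more zeros: 69.3% of them were at 0 in at least 1 library, against 30.4% of the members, so a set without zeros was also counted. Among genes above 0 in every library, 3 of 16 members (18.8%) were below and 2 (12.5%) above, against 13.4% and 5.5% of 7383 genes. The median level also differed, at 0.171 FPKM for the 23 members and 0.0433 FPKM for all genes in that range. On so few genes, these counts are not read as a difference from the background.

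These counts depended on scaling. With the trimmed mean of log ratios, the no-overlap counts were 3 lower (FN1, LAMC1 and CCN1; background 14.4%) and 3 higher (ITGB5, MMP2 and SPARC; background 14.3%), and the unadjusted p counts were 2 lower (CCN1 and CRIM1; background 8.83%) and 1 higher (ITGB5; background 10.2%). With GC content and length trends removed, they were 3 lower (FN1, LAMC1 and CCN1; background 13.9%) and 3 higher (CD44, ITGB5 and SPARC; background 14.4%) without overlap, and 2 lower (LAMC1 and CCN1; background 9.3%) and 2 higher (ITGB5 and SPARC; background 8.75%) by p. Most of the 21 genes kept their sign under both scalings, and CCDC80, LOX, LAMB2 and CD44 changed it under either or both. FN1, LAMC1 and CCN1 stayed lower without overlap under both, and ITGB5 stayed higher. SPARC was higher without overlap under both, although its groups overlapped before scaling. FN1 and CCN1 passed the minimum only through Con and ITGB5 only through GLUP, so the filter favours these directions here too. The counts without overlap lay near the background. GC content moved with the fold changes: Spearman's rho was 0.479 across the 21 genes and 0.555 across the 7279 genes tested with a GC value, where genes share libraries and are not independent replicates. The 21 genes had a median GC content of 48.8%, against 47.2% of all genes tested, and the part of GC content in the differences was not tested.

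Con replicate 1 held the highest value of 9 of the 21 genes and Con replicate 2 of 7, while Con replicate 3 held 0. Over all genes tested, these libraries held the highest value of 27.7%, 37.6% and 5.28%. GLUP replicate 3 held the lowest value of 10 of the 21 genes, against 19.8% of all genes tested. Without Con replicate 3, 3 of 21 genes (14.3%) passed an adjusted p under 0.05 in the lower direction, against 16.3% of all genes tested, and 0 in the higher direction, against 2.2%. The 3 were CRIM1 (log2 fold change -1.38, adjusted p = 0.0285), CCN1 (-0.78, adjusted p = 0.0470) and LAMC1 (-0.78, adjusted p = 0.0480) by limma. CRIM1 and CCN1 passed the minimum only through their Con level. The library left out was also the Con library of CRIM1 that fell among the GLUP libraries. These calls are a description only. The median deviation of the 21 genes from their own means ran from 0.31 in Con replicate 1 to -0.30 in GLUP replicate 3, and that of all genes tested was 0.23 and -0.10 in the same libraries.

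**Figure D4:**
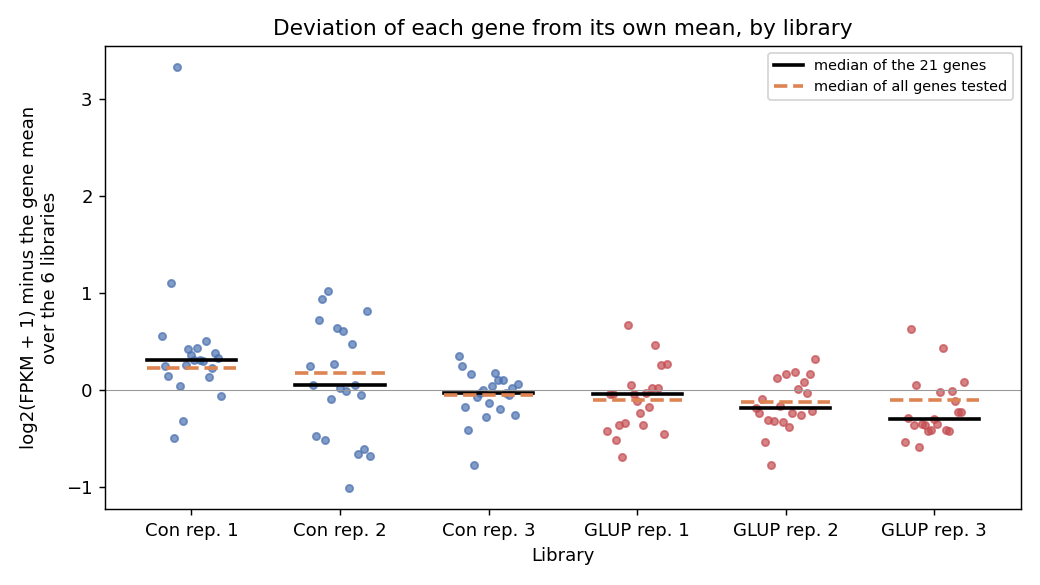
Deviation of each of the 21 genes from its own mean in log2(FPKM + 1), by library, with the medians of the 21 genes and of all genes tested. The spread of the 21 genes was wider in Con (median SD 0.35) than in GLUP (0.20), as it was for all genes tested (0.43 and 0.20).

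A further 120 related genes were taken as lists of other collagens, laminins, matricellular proteins, enzymes, integrins, adhesion proteins and collagen-processing proteins. Of these, 41 were tested, and 3 were lower and 8 higher at an unadjusted p under 0.05, with 0 past the adjusted threshold, beside the background of 17.2% and 4.46%. The collagen-processing list lay mostly on the higher side: 6 of its 11 tested genes were higher and 0 lower by unadjusted p, with a median log2 fold change of 0.92. PPIB, a prolyl isomerase that folds collagen chains, measured 145, 74.9 and 192 FPKM in Con and 304, 273 and 319 FPKM in GLUP (log2 fold change 1.22, limma adjusted p = 0.194). SERPINH1, the collagen chaperone HSP47, measured 9.67, 8.54 and 15.3 FPKM in Con and 23.6, 20.2 and 21.6 FPKM in GLUP. Both were above Con in every GLUP library. POSTN, the matricellular protein periostin, measured 10.9, 13.9 and 6.74 FPKM in Con and 5.89, 4.46 and 3.60 FPKM in GLUP, with no overlap and a GLUP to Con ratio of mean FPKM of 0.442 (limma adjusted p = 0.194). The median GC content of the collagen-processing list was 57.3%. With GC content and length trends removed, 8 of its 11 tested genes were higher by unadjusted p (background 8.75%), with a median of 0.66. Without Con replicate 2, 4 were higher by unadjusted p, with a median of 0.59, beside 291 of all 7406 genes tested. Without Con replicate 3, 2 of its 11 genes passed the adjusted threshold, both higher. In that setting 163 of all 7406 genes tested (2.2%) passed it in the higher direction and 1204 (16.3%) in the lower direction. The lists were chosen with earlier results of these data known, and 2 genes are few. This count is therefore given as a description only. Among the other lists, the counts by unadjusted p were 2 lower and 1 higher of 6 tested matricellular genes, 1 higher of 4 matrix enzymes and 1 lower (PTK2, the focal adhesion kinase) of 9 integrin adhesion genes. The 8 fibre and proteoglycan genes, the 2 other collagens and the 1 other integrin tested gave 0 in either direction, and none of 7 further laminins and nidogens reached the minimum.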

How the data were processed

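RNA-seq of HGC-27 cells was analysed in 6 libraries, 3 Con and 3 GLUP, grouped by the sample titles. The deposited values are FPKM, computed by the authors, for 62492 Ensembl gene rows, of which 49 pseudoautosomal rows, all at 0, were summed with their counterparts. The submitters' processing notes name HISAT2, Cufflinks, RSEM and GRCh38.p10, with no versions or roles, while the gene identifiers carry the suffixes of a GENCODE annotation lifted to GRCh37, so no gene coordinates are given. Symbols were matched for 62162 genes. FPKM carry no counts, so count tests were not used and depth is unknown. Strand-specific counting is not stated.

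After log2(FPKM + 1) transformation, GLUP was compared with Con by limma 3.58.1 under R 4.3.3 (lmFit and a trended eBayes, two-sided tests, Benjamini-Hochberg adjusted) for genes averaging 1 FPKM or more. For members below that minimum an unfiltered fit was used. Fold changes understate the change of low genes. The named genes were CCN1, CCN2 and ANKRD1, the 10 tested members with the smallest p, and members above 5 FPKM. The members and lists were chosen with earlier results of these data known. GC content and length came from GENCODE canonical transcripts and covered 98.3% of tested genes. The fit was tested on simulated data. Alternatives were a pseudocount of 0.1, no filter, a minimum of 5 FPKM, the trimmed mean of log ratios (30% by ratio, 5% by level), the upper quartile, eBayes without trend, the replicate block, removal of GC content and length trends (loess, span 0.5) without and with the block, and leaving out each library.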

Additional observations from a re-analysis of the deposited data

How the results depend on the processing

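Most values kept their direction. The adjusted calls were 0 in the analysis as reported and ran from 0 to 3 when each library was left out, 3 of them without Con replicate 3. Genes lower by unadjusted p numbered 4: 0 with a minimum of 5 FPKM, which leaves only SPARC and TIMP1, 2 with the trimmed mean of log ratios, 2 with the upper quartile, 2 with GC content and length trends removed, 1 with those trends removed and the block, and 2 to 7 with a library left out. Genes higher by unadjusted p numbered 0: 1 with the trimmed mean of log ratios, 1 with the upper quartile, 2 with the trends removed, 1 with the trends removed and the block, and 0 to 1 with a library left out. The median log2 fold change of -0.39 was -0.60 with a pseudocount of 0.1, 0.36 with a minimum of 5 FPKM, -0.21 with the trimmed mean of log ratios, -0.22 with the upper quartile, -0.0675 with the trends removed, with and without the block, and -0.0891 without a filter. The no-overlap lower count of 6 was 0 with the minimum of 5 FPKM, 3 with the trimmed mean of log ratios, the upper quartile and both removals of trends, 11 without a filter, and 6 to 12 with a library left out, 12 without Con replicate 3. Without Con replicate 3, 3189 of all 7406 genes tested were lower without overlap. By unadjusted p, 2330 of them were then lower and 656 higher, beside 7 and 1 of the 21 members. With the trends removed, with and without the block, LOX became 0.11, CCDC80 0.0064 and CD44 0.30. LAMB2 became 0.0808 and CD44 0.13 under trimmed mean scaling, and 0.0741 and 0.13 under upper quartile scaling. With a library left out, CD44 ran from -0.13 to 0.0084, ITGA5 from -0.14 to 0.36 and TIMP1 from -0.0108 to 0.65. The cause of these changes was not tested.

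With the replicate block, 5 of the 21 genes were lower by unadjusted p, beside 1158 of all 7406 genes tested. Same-numbered libraries did not deviate together (correlations of 0.13, -0.01 and -0.17), so the numbers were not taken as pairs. Of 309 values of the 21 tested genes and CCN2, 293 kept their direction and side of the threshold, 13 changed sign as given, and CCN1, CRIM1 and LAMC1 passed the threshold without Con replicate 3. FPKM are relative to each library's total, and low genes rest on few fragments of unknown number.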

Other observations

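LUM, a keratan sulfate proteoglycan of connective tissue, ran from 47.2 to 76.7 FPKM, DCN, decorin, from 16.0 to 41.3 FPKM, and COL3A1, a fibrillar collagen, from 12.2 to 21.5 FPKM over the 6 libraries, while PDGFRA stayed at or under 0.979 FPKM and PDGFRB at or under 0.198 FPKM. Endothelial markers did not exceed 0.00591 FPKM.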
